A study of Homo sapiens with 2 samples.

Results

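The regions described here are the eIF4A1 peaks lying 1 to 3 kb from an annotated transcript start. They come from 1 RNA immunoprecipitation sequencing (RIP-seq) experiment in DU145, an established human prostate cancer cell line. A cytoplasmic lysate was divided between an antibody against eIF4A1 and control IgG, both raised in rabbit, and each precipitate gave 1 library; the labels name no treatment and no genetic change in either. Members were all peaks that the deposited annotation table puts in the promoter classes of 1 to 2 kb or 2 to 3 kb. There were 350 of them among 1919 annotated peaks, with 192 in the nearer class and 158 in the farther one. The deposited table named 317 genes for them, of which 289 were protein-coding, 12 were microRNA genes and 11 were long noncoding RNA genes. With 1 library per antibody no difference had a replicate check, and all peaks share the same library, so shares are given with exact Clopper-Pearson 95% intervals that cover counting error only and without a test.

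eIF4A1 is an ATP-dependent RNA helicase of the DEAD-box family. Together with the cap-binding protein eIF4E and the scaffold eIF4G it forms eIF4F, which opens secondary structure in the 5′ untranslated region so that the small ribosomal subunit can load and scan. Messages with long, structured or GC-rich leaders are known as the ones most dependent on this helicase. A RIP-seq peak marks a stretch of RNA recovered with the antibody, and its annotation class states only where the genomic position lies relative to gene models. Because many genes have several annotated transcripts with different starts, a position close to one transcript start can be far from the start of the gene.

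The class name was therefore checked against the data, which went against reading these regions as the sequence next to gene starts. Of the 324 members whose gene has a known strand, 51 (15.7%, 11.95 to 20.2) had a summit no more than 3 kb into the RefSeq gene that holds it, measured from its 5′ end. In contrast, 129 (39.8%, 34.4 to 45.4) lay within 3 kb of the 3′ end of that gene. Over all annotated peaks, which include the members here and below, these shares were 22.4% (20.4 to 24.4) and 26.5% (24.4 to 28.7). The share near the 5′ end depends on the distance rule itself, which puts peaks next to a start in the class within 1 kb. There it was 45.3% (41.6 to 49.0). In the exon and 3′ UTR classes, whose peaks lie more than 3 kb from the annotated start, it was 0.292% and 0%. The members thus stand between these classes. The genes holding members were shorter, with a median length of 25027 bases against 36794.5 over all annotated peaks. Within 3 kb of both gene ends lay 7.72% (5.06 to 11.2) of members and 4.73% (3.77 to 5.85) of all peaks. A fixed distance of 3 kb takes in a larger part of a shorter gene, and the part of gene length in these shares was not tested. EIF4A1 itself was named for 0 of the members. The distance took precedence over other classes, since 0 peaks at 1 to 3 kb from a start carried another class, so a member can also lie in an exon or a UTR, and no exon annotation was used here. The distance rule was sharp at both edges. The members nearest to the inner edge were named for AKNA at 1008 bases (fold 3.97) and KMT2C at 1009 bases (fold 6.93), and the closest peaks left out were named for EXTL3 at 985 bases (fold 3.68) and MADD at 984 bases (fold 4.83). At the outer edge the members named for MIR1237 at 2986 bases (fold 7.35) and HEG1 at 2990 bases (fold 2.95) were in, and those named for PHOSPHO1 at 3025 bases and CEP131 at 3033 bases, both with a fold of 2.95, were out.

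Sequences are shown for 2 purposes. The first shows a member of 20 bases, the smallest width, and is the only member peak lying wholly inside a RefSeq promoter window (GRCh38.p14). It was named for MARCHF8, a membrane-bound ubiquitin ligase, and its deposited distance to the annotated start was -2060 bases, that is upstream. It covers chr10:45464250-45464269 and is drawn from the promoter window of LOC105378286, on the plus strand, with capitals marking the 20 bases of the peak and lower case the flanks, from chr10:45464245-45464274. Its fold was 3.99 from 3 reads, and 12 of its 20 bases (60%) were G or C.
MARCHF8 peak: atgtcCTGGCTGGATGGCGTGATAGaagtg

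The second set shows the mature microRNAs behind the 4 microRNA names with the highest folds, because the table names these short RNAs for peaks that do not cover them. Capitals mark the seed, bases 2 to 8, which pairs with target messages; no seed is shared between the sequences shown. All are from RefSeq, which matched 10 of the 12 microRNA genes. On GRCh38.p14 the mature sequences shown lie at chr9:137450061-137450081 and chr9:137450026-137450046 (miR-7114-5p and -3p, minus strand), chr11:64368651-64368671 and chr11:64368683-64368703 (miR-1237-5p and -3p, plus strand), chr4:2250091-2250109 (miR-4800-3p, minus strand) and chr12:12915882-12915904 (miR-614, plus strand).
hsa-miR-7114-5p: uCUGUGGAguggggugccugu
hsa-miR-7114-3p: uGACCCACcccucuccaccag
hsa-miR-1237-5p: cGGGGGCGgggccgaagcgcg
hsa-miR-1237-3p: uCCUUCUGcuccgucccccag
hsa-miR-4800-3p: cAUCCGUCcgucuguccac
hsa-miR-614: gAACGCCUguucuugccaggugg

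All 13 peaks named for microRNA genes had their summit inside another gene, and 0 of them fell inside the hairpin of the named microRNA. The peak named for MIR7114 (fold 7.60, 7 reads) lay in NSMF, 1202 bases from the 3′ end of that gene and 1314 bases downstream of the microRNA start. The peak named for MIR1237 (fold 7.35, 7 reads) lay in RPS6KA4, a kinase gene, 627 bases from its 3′ end. The peak named for MIR4800 (fold 6.43, 6 reads) lay in MXD4, which encodes a partner of MAX, 487 bases from the 3′ end. Both peaks named for MIR614, with folds of 6.23 and 5.54 and 6 reads each, lay in GPRC5A, an orphan receptor gene. These names thus describe the nearest annotated start and not the gene in which the summit lies.

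The fold of a peak is the authors' linear ratio of eIF4A1 over control at the summit. It was taken here to have 1 read added to each side, so that a peak over almost no control reads has a fold near its read number plus 1. The members' folds ran from 2.93 to 10.8, with a median of 4.16 and the middle of the distribution between 3.93 and 5.61 (first and last quartile limits). Over all annotated peaks the median was 3.99, and these limits were 3.90 and 4.95. A fold of at least 5 was found in 112 members (32.0%, 27.1 to 37.2), against a background of 22.5% over all annotated peaks and 22.6% (19.6 to 25.7) in the class within 1 kb of a start. By the deposited −log10 q the members' share was not the higher one. A value of at least 5 was reached by 80 members (22.9%, 18.6 to 27.6) and 26.3% (24.4 to 28.3) of all annotated peaks, and these intervals overlap. The members thus held a larger share of high folds, and not a larger share of high −log10 q values.

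The number of eIF4A1 reads stacked at each summit was solved from each peak's fold and −log10 p as deposited, and is the only depth known for these peaks, because the sources used here give no library totals. Members had between 2 and 15 reads with a median of 4. At least 5 reads were found in 130 members (37.1%, 32.1 to 42.4), against 26.7% of all annotated peaks, 27.5% (24.3 to 30.9) of peaks within 1 kb of a start, 22.9% (18.8 to 27.5) of the exon class and 29.9% (24.2 to 36.1) of the 3′ UTR class. All 112 members with a fold of at least 5 are among these 130, so the higher shares by fold and by reads are 1 measurement and not 2. At the other end, 169 members (48.3%, 42.9 to 53.7) rested on 2 or 3 reads, and the position and fold of each such peak are correspondingly uncertain. The control background recovered from the same values moved along with the reads. It was above 0.1 reads in 24.9% (20.4 to 29.7) of members and 17.8% (16.1 to 19.6) of all peaks, and its part in the fold and −log10 q differences was not tested.

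**Figure D1:**
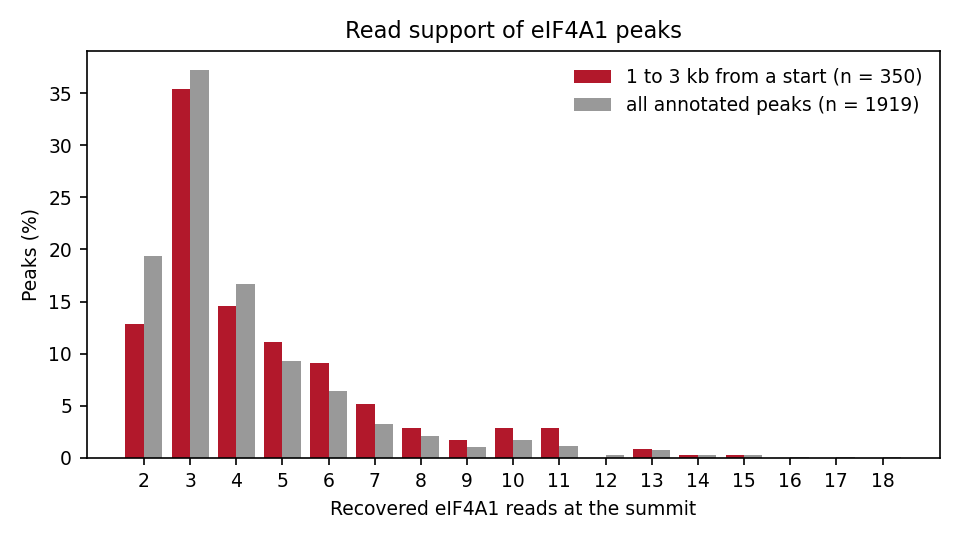
Percentage of peaks (vertical axis) at each recovered number of eIF4A1 reads at the summit (horizontal axis), for the 350 peaks 1 to 3 kb from a start (red) and all 1919 annotated peaks (grey). From 5 to 11 reads the red bars stand above the grey ones, and at 2 and 3 reads below them.

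Taken without regard to reads, the members were wider than peaks at large. Their median width was 37 bases against 27 over all peaks and 30 in the class within 1 kb of a start. A width of 20 bases was found in 108 (30.9%, 26.1 to 36.0), against 40.3% (38.1 to 42.6) of all peaks. It was found in 37.8% (34.3 to 41.4) of peaks within 1 kb of a start and 37.3% (31.2 to 43.7) of the 3′ UTR class. Among peaks with at least 5 reads it was found in 9.23% (4.86 to 15.6) of members and 9.94% (7.49 to 12.9) of all peaks, so no such difference was seen there. The widest member, at 314 bases, lay in FASN. A second eIF4A1 summit of any class within 5 kb was found for 75 members (21.4%, 17.2 to 26.1), against 16.3% (14.7 to 18.0) of all peaks and 19.1% (16.3 to 22.1) of peaks within 1 kb of a start. With 1 peak per gene the members' share was 15.8% (11.9 to 20.3). The other sets were not reduced in this way, so that value is not to be set against theirs. Another member lay that close for 41 members.

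The highest fold belonged to a peak named for LOC105371789, an uncharacterised long noncoding RNA gene, at chromosome 17, 44117527 to 44117585. It had a fold of 10.8 from 10 reads over a recovered background of 0.0176 reads. Its summit also lies inside HDAC5, a class II histone deacetylase gene, and since the peak tables used here carry no strand, reads from these genes cannot be told apart. The second highest was in FASN, which encodes fatty acid synthase, at chromosome 17, 82088133 to 82088446, with a fold of 10.5 from 11 reads. FASN had 3 further peaks among the 20 highest folds.

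The next highest folds were in 2 kinase genes. MAPKAPK2, a stress kinase downstream of p38, had a fold of 8.14 from 8 reads at chromosome 1, 206730036 to 206730069. This summit lay 1107 bases from a transcript start but 45136 bases from the 5′ end of the gene and 4240 bases from its 3′ end. TAOK2, a kinase upstream of p38 and JNK signalling, had a fold of 8.01 from 8 reads at chromosome 16, 29983615 to 29983647. The others of the 20 highest folds are described by what the genes encode and not by rank, and such groupings were made after their values were seen. PEA15, an adaptor that binds ERK, had a fold of 7.29 from 7 reads, and RAB5B, a small GTPase of early endosomes, one of 7.28 from 7 reads. Among transcription factors, the orphan nuclear receptor gene NR4A3 had a fold of 7.73 from 7 reads and JUND, a subunit of AP-1, one of 7.12 from 8 reads.

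Also among them were 3 genes of lipid handling. GBA2, a non-lysosomal glucosylceramidase, had a fold of 7.35 from 7 reads with the summit 183 bases from the 3′ end of the gene. GRAMD1A, a sterol transfer protein of the endoplasmic reticulum, had 7.60 from 7 reads with the summit 359 bases from the 3′ end. NCEH1, a cholesteryl ester hydrolase, had 7.24 from 7 reads at 3736 bases from the 3′ end and 77082 bases from the 5′ end. These 3 do not form a list. The remaining peaks of the 20 with the highest folds were named for GARIN2 (7.80), FAM89B (7.73), BICDL1 (7.35), a dynein adaptor gene, and INPP5E (7.24). The INPP5E peak lay in the neighbouring SEC16A, a gene of endoplasmic reticulum exit sites, 1514 bases from its 3′ end. The GARIN2 summit lies in 3 overlapping RefSeq genes, and 35 members lie in 2 or more, so for these the gene is uncertain.

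**Figure D2:**
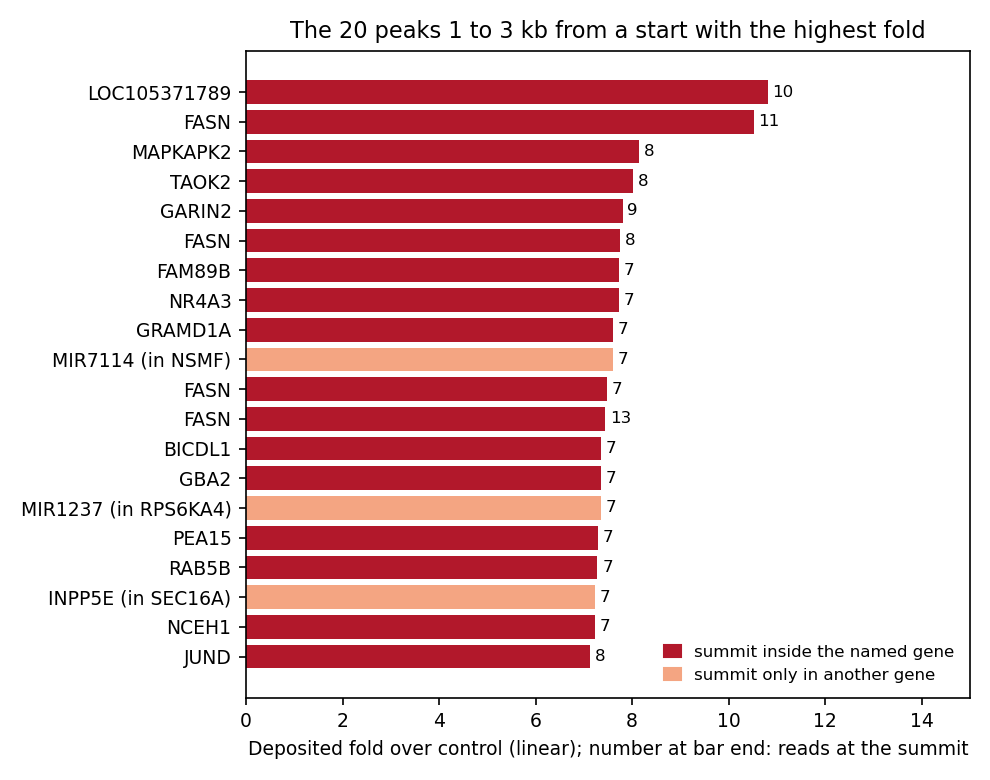
Deposited fold over control (horizontal axis, linear, from 0) of the 20 member peaks with the highest fold, each labelled with the gene named in the deposited table; the number at each bar's end is the recovered reads at the summit. The first 2 bars reach 10.8 and 10.5 and the others lie between 7.12 and 8.14; the 3 light bars are peaks whose summit lies only in another gene, given in brackets.

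Deeper peaks did not always have high folds. The 25 members (7.14%, 4.68 to 10.4) with at least 10 reads compare with 4.59% (3.69 to 5.62) of all peaks. The most reads, 15, stood under a fold of 3.54 at RNA5-8SN4, where the recovered background was 3.52 reads. A peak in BCAM, a laminin-binding adhesion receptor, had 14 reads and a fold of 4.12 over a background of 2.64 reads. Background was above 1 read in 15 members. At LOC105371789, by comparison, 10 reads over a background of 0.0176 reads gave the highest fold.

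Within genes, the members lay toward the 3′ end and the other promoter class toward the 5′ end. The last 20% of the gene held 158 of 324 members (48.8%, 43.2 to 54.4), against 18.2% (15.5 to 21.2) of peaks within 1 kb of a start, 35.1% (30.0 to 40.4) of the exon class, 81.2% (75.6 to 86.1) of the 3′ UTR class and 35.9% of all peaks. The last 10% alone held 115 members (35.5%), whereas the first 10% held 11 (3.40%). Of peaks within 1 kb of a start, 35.1% lay in the first 10% of the gene, 5.52% in the second and 11.05% in the last. The rule itself keeps out peaks next to an annotated start, which lowers the members' share near the 5′ end. It puts those peaks in the class within 1 kb, which raises the share of that class there. The comparison was therefore repeated over peaks more than 3 kb from the 5′ end of the gene, and there the last 20% held 146 of 273 members (53.5%, 47.4 to 59.5) and 125 of 396 peaks within 1 kb of a start (31.6%, 27.0 to 36.4). Over all annotated peaks that far from the 5′ end, members included, the share was 44.8% (42.1 to 47.6), whose interval just meets that of the members. Without the members it was 42.6% (39.6 to 45.7), whose interval lies below theirs. In the 3′ UTR class it was 81.2% (75.6 to 86.1). Among members with at least 5 reads, 46.7% (37.6 to 56.0) lay within 3 kb of the 3′ end, compared with 28.6% (22.5 to 35.5) of peaks within 1 kb of a start with that many reads, 38.0% (33.5 to 42.5) of all such peaks and 70.1% (57.7 to 80.7) of the 3′ UTR class. The intervals of members and all peaks overlap.

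**Figure D3:**
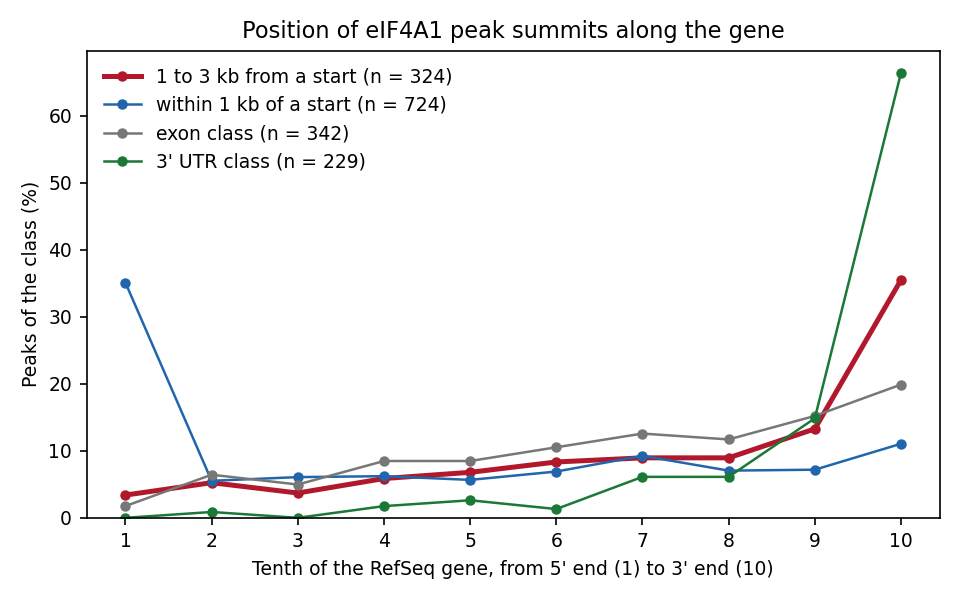
Share of peak summits (vertical axis, %) in each of 10 equal parts of the RefSeq gene that holds them, from the 5′ end (1) to the 3′ end (10), for 4 annotation classes; n is the number of peaks in a gene of known strand. The red line, peaks 1 to 3 kb from a start, rises from 3.40% in the first part to 35.5% in the last. The line for peaks within 1 kb of a start drops from 35.1% in the first part to 5.52% in the second and ends at 11.05%.

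The same positions were then set against the transcript that gave each member its class. The summit was downstream of the annotated start in 232 members (66.3%, 61.1 to 71.2) and upstream of it in 118, close to the 68.3% (66.1 to 70.3) downstream over all annotated peaks. In all, 151 members (43.1%, 37.9 to 48.5) lay inside that transcript, against 47.2% (45.0 to 49.5) of all peaks, and 199 lay outside it, of which 135 were still inside the gene of the same name. The annotated transcripts were short, with a median genomic length of 3093 bases against 6856 for all annotated peaks and 7380 for peaks within 1 kb of a start. In 81 members the summit lay past the 3′ end of the transcript, which under the distance rule can happen only where the transcript is shorter than 3 kb, so the rule takes part in these lengths. Of the 74 of these with a known gene strand, 49 (66.2%, 54.3 to 76.8) were within 3 kb of the 3′ end of the gene and 59 (79.7%, 68.8 to 88.2) in its last 20%. The 118 upstream members are likewise mostly within genes, since 73 lay inside the named gene, 38 only inside another gene and 7 in none.

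**Figure D4:**
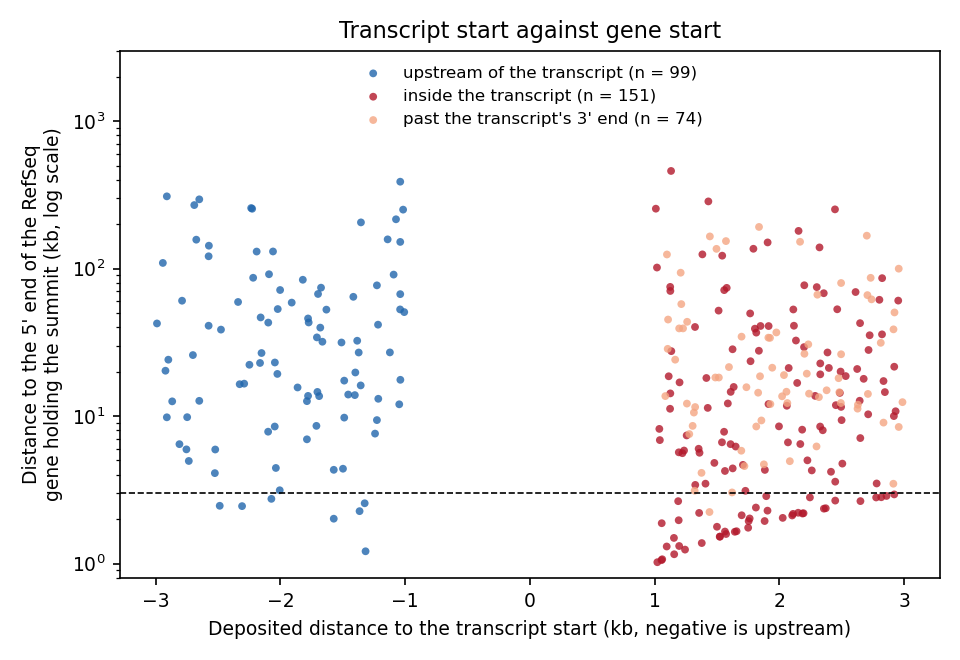
Deposited distance from the annotated transcript start (horizontal axis, kb, negative upstream) against the distance of the same summit from the start of its RefSeq gene (vertical axis, kb, log scale), 1 point per member of known gene strand. The dashed line marks 3 kb, and 51 of 324 points lie at or below it; the points along the lower right are summits for which the transcript start and the gene start are close together.

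The named gene held the summit of 285 members (81.4%, 77.0 to 85.4), another gene alone held 56 (16.0%, 12.3 to 20.3) and none held 9 (2.57%). Over all annotated peaks 77.3% (75.4 to 79.2) lay in the named gene and 17.2% (15.5 to 18.96) in another alone, so a summit in a neighbouring gene was about as common among the members as among peaks at large. Of the summits lying only in another gene, 39 had a gene of known strand, and 33 of these (84.6%, 69.5 to 94.1) were within 3 kb of the 3′ end of the gene that holds them. The same share was 56.8% (41.0 to 71.7) for peaks within 1 kb of a start, 34.4% (22.7 to 47.7) for the exon class, 71.9% (58.5 to 83.0) for the 3′ UTR class and 54.4% (47.7 to 61.0) for all annotated peaks. The members' interval overlaps those of the class within 1 kb and the 3′ UTR class. The distance rule takes part in this share. A summit at most 3 kb from the start of the named gene, but inside its neighbour, can have the neighbour's end close by. The exon and 3′ UTR classes lie more than 3 kb from the annotated start. The difference between the classes is therefore not read as a property of the members. The peak named for GRAMD2A lay in PKM, which encodes pyruvate kinase, 143 bases from its 3′ end, with 11 reads and a fold of 4.35. The peak named for CDK16 lay in UBA1, the ubiquitin-activating enzyme gene, 167 bases from its 3′ end, also with 11 reads and a fold of 4.35. Summits named for MCOLN1 (fold 6.65, in ZNF358) and ANKRD2 (fold 6.43, in UBTD1) were 189 and 710 bases from the 3′ end of the gene holding them. These 4 pairs were chosen after their values were seen.

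Most genes had a single member peak. Of the 317 genes, 294 had 1, 19 had 2 and 4 had 3 or more, and 251 genes had no peak of another class outside intergenic sequence. FASN had 8 members among its 23 peaks, all inside the gene. The folds of these 8 were 10.5, 7.76, 7.47, 7.45, 6.51, 6.38, 5.99 and 3.74, with 3 to 13 reads. They lay between 4579 and 16137 bases from the 5′ end of the gene, so that no FASN member was at the gene start. Without the FASN peaks the median fold of the members was 3.99 in place of 4.16, the share with a fold of at least 5 was 30.7% and the share within 3 kb of a gene 3′ end was 40.8%.

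BCAM had 3 members, with folds of 6.38, 4.12 and 3.74 from 11, 14 and 3 reads. The first of these lay 111 bases from the 3′ end of the gene, at chromosome 19, 44821295 to 44821345. TNK2, a non-receptor tyrosine kinase, had 3 members with folds of 5.70, 5.61 and 2.95 from 5, 5 and 2 reads, all between 4210 and 5003 bases from the 3′ end. The 4 peaks named for RNA5-8SN4, a 5.8S ribosomal RNA gene, had folds of 3.54 to 5.29 from 9 to 15 reads, and 0 of them lay inside it. Ribosomal RNA genes are near-identical copies and 3 of these peaks are on unplaced or unlocalised contigs, so their assignment to 1 copy is uncertain.

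The other genes of each pathway were read from 22 gene lists with 698 distinct genes, of which 37 (5.30%) were named for a member. Over all RefSeq protein-coding genes the share was 1.44% (289 of 20056). The lists were drawn up with earlier results of these data known, so their counts are not independent evidence. The median of the highest fold per gene over all genes with a member was 4.19.

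Lysosome, vesicle coat and trafficking genes had the most members, with 9 of 40 genes named and a median highest fold of 3.93. RAB5B led with folds of 7.28 and 5.34, followed by SEC24C (5.61, 5 reads), a cargo adaptor of the COPII coat, HGS (4.87, 4 reads), which sorts ubiquitinated receptors at endosomes, and PSAP (4.48, 6 reads), the precursor of the saposins. The SEC24C summit was not inside SEC24C but in the noncoding gene LOC124902453. In 3 of these 9 genes the peak with the highest fold had at least 5 reads.

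In epithelial adhesion and surface proteins 5 of 35 genes were named, with a median highest fold of 6.38, and in 4 of the 5 the peak with the highest fold had at least 5 reads. JUP, the desmosomal plakoglobin, had a fold of 6.43 from 6 reads. BCAM had 6.38, and LAMA3, a laminin-332 chain, had 4.91 from 4 reads.

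Fatty acid and sterol synthesis had 6 of 43 genes named, with a median highest fold of 4.09. Next to FASN stood FDPS (5.43, 5 reads), which makes farnesyl diphosphate, SC5D (4.25, 4 reads), a sterol desaturase, and DHCR7 (3.93, 3 reads), which completes cholesterol in the Kandutsch-Russell route. The FDPS summit was 1315 bases from the 5′ end of its gene, whereas the DHCR7 summits were 4961 and 11207 bases from it. Apart from FASN and FDPS, the genes of this list had fewer than 5 reads.

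Chromatin regulators and transcriptional repressors also had 6 of 44 genes named, with a median highest fold of 4.87. EP300, an acetyltransferase, and CHD8, a chromatin remodeller, each had a fold of 5.32 from 9 reads. CIC, a repressor of growth factor targets, had 4.67 from 4 reads. The EP300 summit lay 57440 bases from the 5′ end of its gene and 30045 bases from the 3′ end, and the CHD8 summit 27017 and 43907 bases, in the interior of these long genes.

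Kinase signalling had 3 of 40 genes named. After MAPKAPK2 and TAOK2 came GSK3A, a glycogen synthase kinase, with 4.75 from 4 reads at 155 bases from the 3′ end. In the list of growth, survival and cell cycle regulators 2 of 40 were named, STAT3 (5.61, 5 reads) and the growth factor receptor gene IGF1R (2.95, 2 reads). Single genes were named in 6 lists. They were BICDL1 among motors and adaptors, TLN1 (4.35, 11 reads), an integrin activator, among cytoskeletal genes, HUWE1 (5.62, 6 reads) among ubiquitin ligases, H4C2 (4.88, 4 reads) among histones with its summit outside the gene, FN1 (3.93, 3 reads) among epithelial and mesenchymal markers, and RNA5-8SN4 among structured RNAs.

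In the other 10 lists 0 genes were named for a member. These were translation initiation factors (43 genes), elongation and termination factors (11), ribosomal proteins (76), endoplasmic reticulum chaperones (26), glycolysis and hypoxia (20), RNA-binding proteins (42), housekeeping genes (30), long noncoding RNAs (24), androgen receptor and luminal prostate markers (11), and blood and stromal markers (16). The share over all protein-coding genes was 1.44%, and with lists of this size a count of 0 sets no list apart from it. Nor do these lists lack eIF4A1 peaks as a whole. Named for a peak of any class outside intergenic sequence were 5, 2, 4, 5, 4, 2, 1, 1, 0 and 2 of their genes, in the order given. By gene body, 1 glycolysis gene did hold a member, PKM, whose peak was named for its neighbour GRAMD2A. A peak list holds no expression level, so the identity of DU145 as an epithelial line could be checked only by which markers carry a peak, and of the 17 epithelial and mesenchymal markers only FN1, a mesenchymal one with 3 reads, did so here. This does not bear on epithelial identity.

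**Figure D5:**
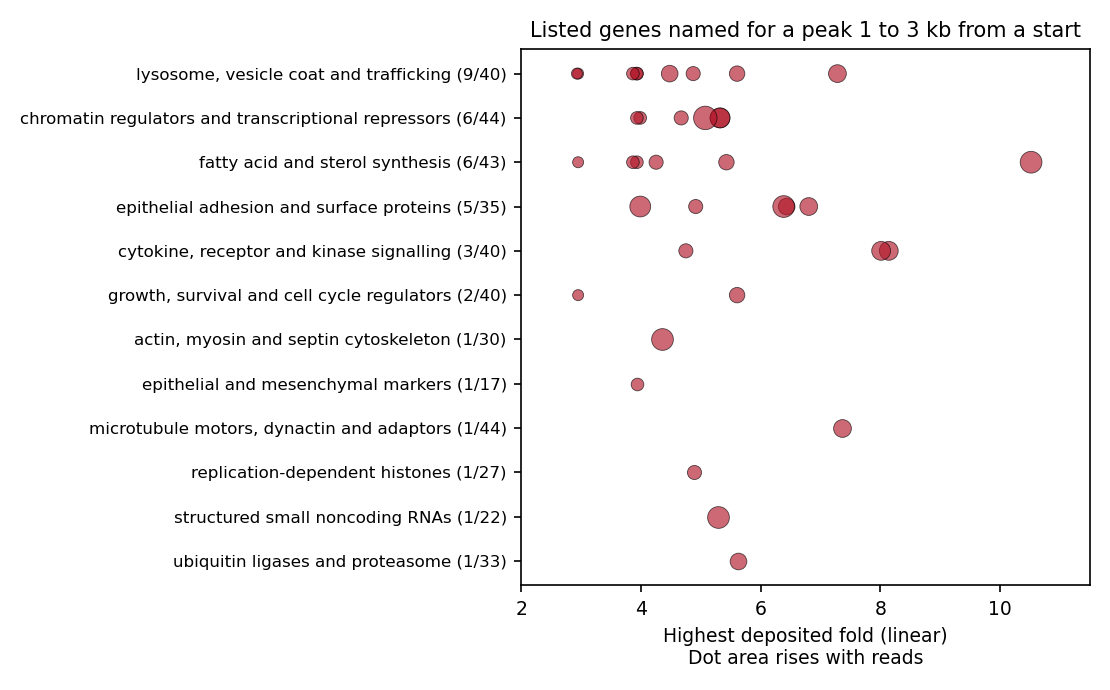
Highest deposited fold (horizontal axis, linear) of each listed gene named for a member peak, 1 dot per gene, by list; brackets give named genes of listed genes and dot area rises with the recovered reads. Lysosome and trafficking genes are the most numerous, with 9 of 40, and FASN has the highest fold of all listed genes, 10.5.

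Promoter sequence was compared because structured, GC-rich starts are a known property of messages that need this helicase. A RefSeq window of 250 bases before to 50 bases after the start was found for 241 of the 291 protein-coding genes that hold a member (82.8%). The median GC content of the first 50 transcribed bases was 70%, the same as for genes holding a peak within 1 kb of a start and for genes holding any peak. The motif searched was GGC repeated 4 times in a row, on either strand, counted once per window whatever its overlaps. It was present in 21 of the 241 windows (8.71%, 5.47 to 13.0). It was present in 4.68% (2.99 to 6.95) of windows of genes with a peak within 1 kb of a start, 6.06% (4.72 to 7.65) for genes with any peak and 2.54% of all 27305 windows, noncoding genes included. Over all protein-coding genes it was 3.45% (3.17 to 3.74) and the median GC content of the first 50 bases 64%. A window was found for 79.0% of those genes, against 82.1% of genes with a peak within 1 kb of a start and 81.7% with any peak. Genes without a window are not covered in any group, and their effect was not tested. The motif intervals of member genes and of genes with any peak both lie above the protein-coding one, so this is not particular to the members. These intervals overlap among the 3 peak-holding groups, and a match is only a description of the letters in the window.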

How the data were processed

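RIP-seq peaks from 2 samples, 1 eIF4A1 and 1 IgG library, were used as deposited. The aligners STAR and BWA, with Salmon, Picard and DESeq2, the peak caller MACS2, the annotator ChIPseeker, and the builds hg19, GRCh38 and hg38 are named in the submitters' processing notes without roles. The track deposited by the authors holds the fold over control (a linear ratio), −log10 p, −log10 q and a score for each of 1920 peaks, per the file headers and the narrowPeak order; the score was not used further. It is filed under the IgG sample, but its peaks carry the name of the eIF4A1 library and were read as eIF4A1 peaks over control. The sources used here do not say which library was the control or what the word filtered in the peak names stands for. The annotation table has 2051 lines for 1919 peaks, and each peak was counted once.

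Members were joined by peak name. Coordinates match GRCh38 and are 1-based; symbols and gene spans came from RefSeq (GRCh38.p14). The gene holding a summit was the named gene where it did so, otherwise a protein-coding gene before others and then the longest. Gene strand came from the deposited transcript or the RefSeq promoter table. Reads at the summit were solved from fold and −log10 p, taking the fold as (reads + 1)/(background + 1) and p as a Poisson tail. All 350 members gave a whole number within 0.01 on the −log10 p scale, and 5 had a second solution. Of 500 peaks simulated from these same formulas 100% were recovered, which checks the solving step and not the formulas. The simulated backgrounds stayed below 1 read, so the 15 members with a recovered background above 1 lie outside the range simulated. The sources used here give no library depth. Python 3.11.15, pandas 2.3.3 and SciPy 1.17.1 were used.

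Named in the text are the genes of the 20 highest folds, genes with at least 3 members and up to 4 genes per list, some of which are not reported here; AKNA, KMT2C, EXTL3, MADD, HEG1, PHOSPHO1, CEP131, MARCHF8, MIR4800, MIR614, PKM, UBA1, MCOLN1, ANKRD2 and the genes of the last part were chosen after their values were seen. The members and gene lists were chosen with earlier results of these data known. Alternatives changed which peaks enter, the read minimum, the neighbour distance and the start used. Sequence features of the peaks were not analysed here.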

Additional observations from a re-analysis of the deposited data

How the results depend on the processing

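Of 78 alternative values, 55 stayed within 1.5 times the count or within the counting interval, and 23 did not. With −log10 q of at least 5, there were 80 member peaks naming 76 genes, 9 list genes, a median fold of 5.90, 55.0% with at least 5 reads, 55.0% with a fold of at least 5 and 28.8% with another peak within 5 kb. With at least 5 reads there were 130 peaks naming 114 genes, 20 list genes, a median fold of 5.79, 86.2% with a fold of at least 5, 35.4% with another peak within 5 kb, 76.9% inside the named gene, 46.7% within 3 kb of the gene 3′ end and 55.7% in the last 20% of the gene. Both thresholds leave fewer peaks by construction. A minimum of 4 or 8 reads gave 51.7% or 11.7% of members. Another peak was near for 15.8% with 1 peak per gene and 10.9% at a distance of 1 kb. The farther class alone gave 11.9% within 3 kb of the gene 5′ end, and summits inside the named gene gave 33.7% within 3 kb of the 3′ end. With the distance taken to the 5′ end of the RefSeq gene, 130 peaks were 1 to 3 kb away, of which 51 were also members. The alternatives on gene 3′ ends and those without FASN were chosen after seeing the data. No paired analysis was possible because there is 1 library per antibody, and for the same reason no replicate could be left out. The planned sequence features were not run, as no genome was used here. Depth is limited to the reads at each summit, 2 or 3 in 169 members.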

Other observations

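The members were spread over all chromosomes from 1 to 22 and X, with chromosome 19 holding the most, 54 (15.4%, 11.8 to 19.6) against 10.8% (9.48 to 12.3) of all annotated peaks. The higher share lay in the 2 to 3 kb class, with 35 of 158 (22.2%, 15.9 to 29.4), while the 1 to 2 kb class had 19 of 192 (9.90%, 6.06 to 15.0). Both classes together gave 3.72 members per 100 protein-coding genes there and 2.91 on chromosome 17, which held 34 (9.71%, 6.82 to 13.3), 8 of them in FASN. Of all annotated peaks 9.07% (7.82 to 10.4) lay on chromosome 17, close to the members' share. Rates per 100 genes were not computed for all annotated peaks. Families were taken from the first letters of the symbol alone. By these, 6 of 552 SLC genes, 6 of 305 TMEM genes and 4 of 702 ZNF genes were named for a member, and 0 of 56 KIF and 0 of 56 MYO genes. The SLC symbols include SLC4A1AP and the antisense gene SLC9A3-AS1, so this is not a count of solute carriers. The SLC4A1AP and SLC44A4 summits lay in SUPT7L and EHMT2. KLC3, a kinesin light chain gene without the KIF letters, was named for a member (fold 3.97, 3 reads). Over all protein-coding genes the share was 1.44%, and with counts this small no family is set apart from it.

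Several of the members with at least 10 reads lay close to the 3′ end of their gene, and these were chosen after their values were seen. HSPA2, a heat shock protein 70 gene, had 2 members, both with 10 reads and a fold of 5.85, at 1120 and 701 bases from the 3′ end. MDK, the growth factor midkine, had 10 reads and a fold of 5.85 at 190 bases. CALM3, a calmodulin gene, and GPX4, which reduces lipid peroxides, each had 10 reads and a fold of 3.99, at 322 and 137 bases, and ITGA3, an integrin subunit, had the same values at 357 bases. The recovered control background was 1.76 reads at CALM3, GPX4 and ITGA3 and 0.88 reads at HSPA2 and MDK. A second peak named for GPX4, with 4 reads and a fold of 4.69, lay in its neighbour SBNO2, 120 bases from the 3′ end of that gene. TECPR2, with 11 reads and a fold of 6.38, had its summit 136093 bases from the 5′ end and 3443 bases from the 3′ end. That is farther from the 3′ end in bases, but also toward the 3′ end of this long gene.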
